A study of Mus musculus with 24 samples.

Results

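Embryonic cortical neurons from mice without the IL-1 receptor accessory protein gene (Il1rap-/-) were made to express either AcPb or CD25 and were then given IL-1b at 10 ng/ml for 4 h. The comparison described here is between the 3 AcPb arrays and the 3 CD25 arrays of those IL-1b-treated cultures, 6 of the 24 arrays of the study, over every probe set other than the array maker's AFFX controls. The members were chosen by the labels alone: all arrays labelled as AcPb-expressing or CD25-expressing with the IL-1 stimulus. The other arrays were AcPb and CD25 neurons given a control stimulus, and neurons expressing AcP or AcP plus AcPb with and without IL-1b, each with 3 arrays. All of the cells carried the genotype Il1rap-/- per the labels and were grown in serum-free neuronal medium. The labels do not say how the chains were introduced. They also do not say that replicate arrays came from different cultures, so the spread behind each p-value may be technical.

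IL-1b acts by binding IL-1R1 and then recruiting AcP, the accessory chain that completes the receptor and, through MyD88 and IRAK kinases, starts NF-kB and MAP kinase signalling. AcPb is a neuronal splice form of AcP that ends in another intracellular stretch. CD25 belongs to the IL-2 receptor and takes no part in IL-1 binding, so its arm holds neurons without an accessory chain. In brain tissue many of the genes that respond to IL-1 and related cytokines are also raised in reactive astrocytes, the glial state marked by the intermediate filament proteins GFAP, vimentin and nestin.

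Each value is a background-subtracted probe set intensity on a linear scale, and differences are given on the log2(intensity + 16) scale with values below 0 set to 0. A difference is called where limma's Benjamini-Hochberg adjusted p over all 41856 probe sets tested is under 0.05. Array medians lay between 55.1 and 66.5 over the 24 arrays, and arrays correlated at a mean of 0.985 within the IL-1b-treated AcPb group, 0.983 within the IL-1b-treated CD25 group and 0.98 between them. Neuron markers, the labelled cell type, were present on both arms: the 17 of them summed to between 60290 and 60530 intensity units on AcPb arrays and between 58910 and 65020 on CD25 arrays. Astrocyte markers were also present, with sums of 41910 to 44240 and of 41850 to 49650 units. Il1rap, read by 5 probe sets, was not called on any: its brightest one read 118, 100 and 115 on AcPb arrays and 115, 124 and 139 on CD25 arrays. These readings lay above the array medians although CD25 neurons received no accessory chain, and whether the probed stretch lies inside the deleted part of the gene is not known here. Il2ra, the gene of CD25, read 20.6 to 37.2 in AcPb neurons and 25.2 to 38.9 in CD25 neurons. An introduced coding sequence need not contain the stretch an array probes, so these values do not check the labels. Il1r1, on the probe set read, lay below 0 on all 6 arrays. That probe set also averaged -3.53 in IL-1b-treated AcP neurons, where IL-1b raised 83 probe sets, so it does not show whether the receptor was present.

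Most differences between the IL-1b-treated arms were lower values in AcPb neurons. Of the probe sets tested, 434 were called lower (1.04%) and 98 higher (0.234%) in AcPb neurons, 532 in all (1.27%), which covered 319 and 80 genes with a single symbol. The called falls had a median log2 difference of -0.74 and reached -4.17, and 149 of them were at least 2-fold. The called rises were smaller, with a median of 0.63, and 17 were at least 2-fold on that scale. The 3 AcPb values and the 3 CD25 values did not overlap for 529 of the 532, against 19.3% of all probe sets tested (8.58% with AcPb higher and 10.7% with AcPb lower). The calls rest on the same values, so the lack of overlap is no separate evidence. The number of calls depended on how the spread was estimated: with the 6 arrays alone, 50 probe sets were called lower and 10 higher. Without CD25 replicate 3, 232 were called lower and 39 higher, and without AcPb replicate 2 or replicate 3 the totals were 316 and 325.

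CD25 replicate 3 carried the highest of its group's values for 313 of the 434 falls and the lowest for 63 of the 98 rises. In the other arm, AcPb replicate 1 carried the highest of its group's values for 231 of the 434 falls. How often each array was the extreme one over all probe sets was not counted. The median SD of the called falls was 0.0996 log2 units among AcPb arrays and 0.17 among CD25 arrays. Over all probe sets tested it was 0.121 and 0.153.

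Among the falls named by the size of their change were the regulators Cebpd and Socs3. Cebpd, a C/EBP factor of acute phase transcription, read 88.5, 73.2 and 69.5 on AcPb arrays and 553, 674 and 1074 on CD25 arrays (log2 difference -3.02 ± 0.26 SE, limma adjusted p = 5.9e-06). Arms that do not overlap were a condition for naming the leading falls, so the separation is no result about Cebpd. Its CD25 arrays themselves spread widely. A second, dim Cebpd probe set was not called (-1.12, adjusted p = 0.33). Socs3, the inhibitor induced by STAT3 that turns off gp130 receptors, read 33.7, 40.1 and 61.4 in AcPb neurons and 230, 261 and 509 in CD25 neurons (-2.46 ± 0.29, adjusted p = 0.00014). Of its 3 probe sets, the dimmest was not called (-1.20, adjusted p = 0.37).

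Cxcl10, the chemokine that draws CXCR3-bearing T cells, had nearly identical values within each arm. It read 19.7, 21.6 and 18.7 in AcPb neurons and 201, 196 and 178 in CD25 neurons (-2.53 ± 0.32, adjusted p = 0.00023). Icam1, the ligand of leukocyte integrins, read 22.2, 19.1 and 20.9 in AcPb neurons and 149, 186 and 176 in CD25 neurons (-2.34 ± 0.30, adjusted p = 0.00032). Serpina3n, a secreted serine protease inhibitor of the acute phase, read 291, 278 and 259 in AcPb neurons and 1208, 1184 and 1277 in CD25 neurons (-2.09 ± 0.20, adjusted p = 1.5e-05). For these 3 genes the gap between arms was several times the spread within either arm, and all 3 calls held under every alternative tried, the 6 arrays alone included.

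Several other leading falls read below 0 in AcPb neurons on the probe set that changed most. Hspb1, a small heat shock protein that binds intermediate filaments, was at -31.9, -31.3 and -21.4 in AcPb neurons and 173, 211 and 402 in CD25 neurons on its more divergent probe set (-4.03 ± 0.28, adjusted p = 1.1e-06). Its brighter probe set read 216, 200 and 207 in AcPb neurons and 406, 530 and 1061 in CD25 neurons (-1.49 ± 0.24, adjusted p = 0.0027). Where a group lies at or below 0, as AcPb neurons do for the first of these, the size of the log2 difference depends on the added 16 and is no fold change of the RNA.

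Tnfrsf12a, the receptor of the cytokine TWEAK, read -55.0, -89.1 and -99.3 in AcPb neurons and 202, 198 and 366 in CD25 neurons on its more divergent probe set (-4.03 ± 0.62, adjusted p = 0.0018). Its other probe set read 34.1, -61.3 and -89.5 in AcPb neurons and 204, 177 and 353 in CD25 neurons (-3.42, adjusted p = 0.0017). S1pr3, a sphingosine 1-phosphate receptor, was lower on all 3 of its probe sets; the brightest averaged 524 in AcPb neurons and 2626 in CD25 neurons (-2.29, adjusted p = 5.9e-06). Both genes also rose with IL-1b in AcP neurons, Tnfrsf12a on 1 of its 2 probe sets. Nes, the intermediate filament protein of progenitors and reactive glia, read 36.1, 30.4 and 5.14 in AcPb neurons and 312, 332 and 725 in CD25 neurons on one probe set (-3.57 ± 0.57, adjusted p = 0.0025). The brightest Nes probe set differed less and was not called (-0.67, adjusted p = 0.079).

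The other leading falls were chosen, like those above, among probe sets whose arms do not overlap. Cd109, a membrane protein that binds TGF-beta, read 44.2, 32.7 and 13.7 in AcPb neurons and 198, 304 and 630 in CD25 neurons (-3.00 ± 0.53, adjusted p = 0.0055). Slc14a1, a urea transporter of astrocytes, read 16.5, 11.1 and 5.8 in AcPb neurons and 157, 156 and 114 in CD25 neurons (-2.55 ± 0.25, adjusted p = 2.5e-05). Timp1, an inhibitor of matrix metalloproteases, read 63.6, 55.7 and 41.8 in AcPb neurons and 191, 251 and 597 in CD25 neurons (-2.23 ± 0.43, adjusted p = 0.0099). Anxa2, a calcium-dependent membrane-binding protein, and Trim47, a ubiquitin ligase, had log2 differences of -3.05 and -2.90 on probe sets that read near or below 0 in AcPb neurons. The brightest Anxa2 probe set averaged 445 in AcPb neurons and 1090 in CD25 neurons (-1.24, adjusted p = 0.00023). Glycam1, a mucin-like ligand of L-selectin, had the largest log2 difference of all, with 3.54, -2.46 and -14.0 in AcPb neurons and 551, 552 and 74.3 in CD25 neurons (-4.17 ± 0.68, adjusted p = 0.0028). Its CD25 values were uneven, and the lowest of them came from the replicate that was highest for Cebpd, Nes and Timp1.

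**Figure D1:**
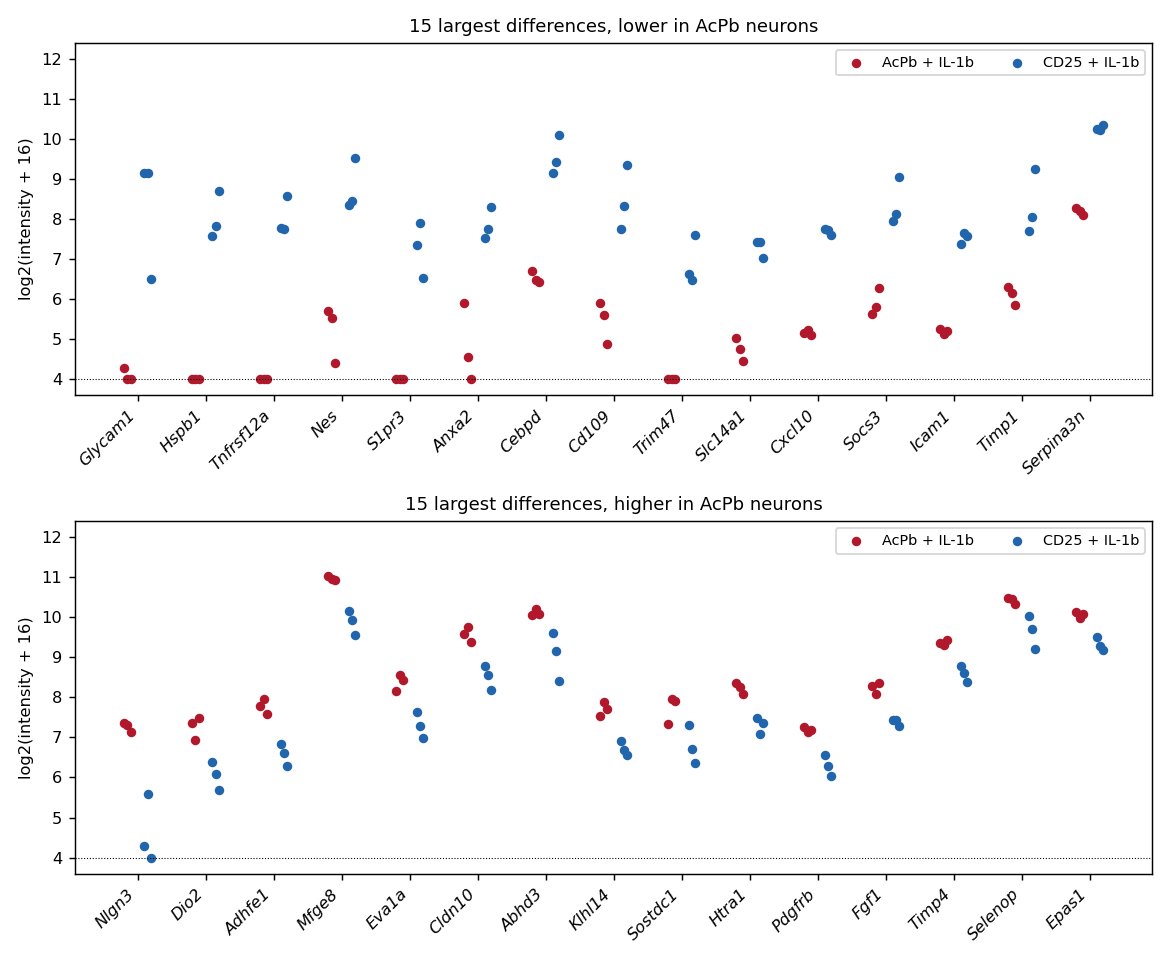
Values of the 15 largest falls (top) and the 15 largest rises (bottom) on the log2(intensity + 16) scale, 1 point per IL-1b-treated array, AcPb in red to the left of CD25 in blue, on the probe set with each gene's largest change. The dotted line marks an intensity of 0 or below, where the plotted probe sets of Hspb1, Tnfrsf12a, S1pr3 and Trim47 have all 3 AcPb arrays; brighter probe sets of Hspb1 and S1pr3 read above 0 there. Cebpd reads 553 to 1074 units in CD25 neurons and 69.5 to 88.5 units in AcPb neurons.

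The promoter windows of the leading falls are shown because several of these genes are textbook targets of STAT3, AP-1 or NF-kB, the factors that act downstream of IL-6 family and IL-1 receptors. RefSeq promoters (GRCm38.p6) were at hand for 12 of the 15 falls and 7 of the 15 rises, and the 250 bases before the start were searched on both strands. The STAT motif TTCNNNGAA was in 3 of the 12 falls (25%, against 8.13% of 27025 genes), the AP-1 motif TGANTCA in 2 of the 12 (16.7%, against 7.82%) and the NF-kB motif in 1 of the 12 (8.33%, against 4.46%). The CArG box of serum response factor was in none of them (1.62% of all genes), and no match to any of the 4 motifs was found in the 7 rises. No match overlapped another. These are matches of letters and were not tested as binding sites. The 5 windows that hold a match are given 5′ to 3′ on the gene's own strand, with the matches in capitals.
Cxcl10 (chr5:92348890-92349139, minus strand, NF-kB and AP-1): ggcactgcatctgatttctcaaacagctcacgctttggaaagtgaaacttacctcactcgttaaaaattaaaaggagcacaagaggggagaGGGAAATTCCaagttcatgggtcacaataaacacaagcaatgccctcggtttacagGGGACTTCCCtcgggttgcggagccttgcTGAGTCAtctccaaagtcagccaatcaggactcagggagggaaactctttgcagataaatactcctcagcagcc
Socs3 (chr11:117969367-117969616, minus strand, STAT): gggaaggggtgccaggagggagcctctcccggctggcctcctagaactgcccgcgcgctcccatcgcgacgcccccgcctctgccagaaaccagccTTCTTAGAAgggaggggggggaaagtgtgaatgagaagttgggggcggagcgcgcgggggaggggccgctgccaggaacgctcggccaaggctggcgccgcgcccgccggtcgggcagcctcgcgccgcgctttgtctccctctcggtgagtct
Icam1 (chr9:21015690-21015939, plus strand, STAT): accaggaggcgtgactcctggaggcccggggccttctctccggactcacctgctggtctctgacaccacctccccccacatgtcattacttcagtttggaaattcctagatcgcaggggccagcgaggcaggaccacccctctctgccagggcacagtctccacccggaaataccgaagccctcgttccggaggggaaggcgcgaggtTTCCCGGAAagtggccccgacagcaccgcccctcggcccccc
Glycam1 (chr15:103565082-103565331, minus strand, STAT): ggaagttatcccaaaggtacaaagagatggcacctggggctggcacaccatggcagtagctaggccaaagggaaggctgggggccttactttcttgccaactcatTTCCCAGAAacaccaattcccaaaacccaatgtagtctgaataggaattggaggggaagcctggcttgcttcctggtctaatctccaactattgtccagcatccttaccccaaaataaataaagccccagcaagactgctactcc
Anxa2 (chr9:69453433-69453682, plus strand, AP-1): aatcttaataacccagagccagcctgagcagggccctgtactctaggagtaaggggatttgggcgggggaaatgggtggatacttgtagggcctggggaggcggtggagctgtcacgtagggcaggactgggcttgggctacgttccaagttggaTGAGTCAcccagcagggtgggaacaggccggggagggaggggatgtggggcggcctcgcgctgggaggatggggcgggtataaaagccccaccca
In Cxcl10 the NF-kB matches begin 159 and 103 bases before the start and the AP-1 match 74 bases before it. The STAT match begins 154 bases before the start in Socs3, 145 in Glycam1 and 42 in Icam1, and the AP-1 match of Anxa2 begins 95 bases before the start.

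Reactive astrocyte genes were the group with the largest share of falls. The 13 genes of this list were picked after values of these data had been seen, so their direction is a description and not independent evidence. On the brightest probe set of each gene, 10 of the 13 were called lower in AcPb neurons and none higher, with a median log2 difference of -1.54, beside 1.5% lower and 0.346% higher among the brightest probe sets of 17343 genes, whose median was -0.01. Leaving out any 1 of the 6 arrays left 8 to 10 of the 13 called, and the 6 arrays alone left 3. Without IL-1b, 11 of the 13 were called lower, beside 3.16% of the brightest probe sets. Gfap, the astrocyte intermediate filament protein, read 665, 493 and 500 in AcPb neurons and 2549, 1732 and 1546 in CD25 neurons (-1.76 ± 0.29, adjusted p = 0.0031), and all 3 of its probe sets were called. Cd44, the hyaluronan receptor, read 240, 221 and 236 in AcPb neurons and 774, 832 and 1128 in CD25 neurons (-1.88 ± 0.20, adjusted p = 4.5e-05). Vim read 4152, 4120 and 4154 in AcPb neurons and 6138, 5574 and 6670 in CD25 neurons (-0.56 ± 0.12, adjusted p = 0.024). Osmr, the oncostatin M receptor, read 173, 143 and 124 in AcPb neurons and 417, 403 and 492 in CD25 neurons (-1.49 ± 0.17, adjusted p = 0.00014). Lcn2, an iron-binding acute phase protein on the same list, was not called, with 49.5, 53.3 and 59.2 in AcPb neurons and 150, 121 and 113 in CD25 neurons (adjusted p = 0.15). It was called under 2 alternatives, values under 32 set to 32 (adjusted p = 0.046) and a fit of the 12 arrays of both arms (adjusted p = 0.027), and the highest adjusted p over its alternatives was 0.34.

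The list of general astrocyte markers held both called and uncalled genes. Of 14, Gfap, Vim and Aldh1l1, an enzyme of folate metabolism, were called lower, none was called higher, and the median of the list was 0.04. At an unadjusted p under 0.05 there were 8 of the 14, beside 11.7% of all probe sets tested. The arms did not overlap for 3 with AcPb higher and 4 with AcPb lower, beside 8.58% and 10.7% of all probe sets. Slc1a3, the glial glutamate transporter GLAST, averaged 3522 ± 219 in AcPb neurons and 3284 ± 113 in CD25 neurons (SD, n = 3 each). Aqp4, the astrocyte water channel, averaged 3089 ± 344 in AcPb neurons and 3898 ± 755 in CD25 neurons, and its arrays overlapped between arms. On bulk arrays fewer cells of a type and less RNA per cell cannot be told apart.

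Part of the members of 4 further lists, also picked after values had been seen, were called lower in AcPb neurons, and none was called higher. The shares over the brightest probe sets of all genes were 1.5% lower and 0.346% higher. Of 10 genes of caveolae and the PMP22 and EMP family, 6 were called lower and none higher, with a median of -0.61. Cavin1, which coats caveolae, read 108, 102 and 100 in AcPb neurons and 215, 264 and 460 in CD25 neurons (-1.40 ± 0.24, adjusted p = 0.0047), and Cav1, Cav2, Emp1, Emp3 and Pmp22 were the others. Of 11 annexins 4 were called lower (Anxa2, Anxa3, Anxa5, Anxa6), and of 12 S100 calcium-binding proteins 3 (S100a6, S100a10, S100a16). S100a6 read 183, 156 and 164 in AcPb neurons and 485, 550 and 781 in CD25 neurons (-1.73 ± 0.22, adjusted p = 0.00022). Of 16 genes of the gp130 and STAT3 pathway, 3 were called lower: Socs3, Osmr and Stat3. Stat3, the transcription factor itself, read 796, 727 and 733 in AcPb neurons and 1238, 1262 and 1770 in CD25 neurons (-0.89 ± 0.13, adjusted p = 0.00092). With 1 of the 6 arrays left out, 4 to 6 caveola genes, 3 to 4 annexins, 2 to 4 S100 genes and 3 to 5 gp130 pathway genes were called lower. With the 6 arrays alone these counts were 1, 0, 0 and 0.

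Among inflammatory gene lists a minority of members was called, always lower in AcPb neurons. Over the brightest probe sets of all genes, 1.5% were called lower. Of 14 chemokines 4 were called: Cxcl10, Cxcl5, Cxcl12 and Cx3cl1. Cxcl12, which guides migrating neurons, read 367, 362 and 373 in AcPb neurons and 506, 551 and 713 in CD25 neurons (-0.65 ± 0.09, adjusted p = 0.00098). Cxcl5, a neutrophil chemokine, was dim on both arms, at 9.77, 6.47 and 1.47 in AcPb neurons and 45.3, 36.4 and 25.9 in CD25 neurons. Ccl2, the monocyte chemokine, was not called, with 48.1, 64.5 and 58.1 in AcPb neurons and 55.9, 74.6 and 79.1 in CD25 neurons (adjusted p = 0.75), and neither were Cxcl1 (adjusted p = 0.43) and Cxcl2 (adjusted p = 0.72).

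Of 17 NF-kB subunit and feedback genes, only Tnfaip2 was called on the brightest probe set (-1.58, adjusted p = 0.0012). Nfkbia, which encodes the inhibitor IkB-alpha, was not called there, at 2722, 2558 and 2602 in AcPb neurons and 3118, 3145 and 3138 in CD25 neurons (-0.25, adjusted p = 0.2). Of its other probe sets 2 of 4 were called lower, at -0.41 and -0.52. Of 18 interferon response genes 4 were called lower, namely the GTPases Gbp2 and Irgm1, the transcription factor Irf9, and B2m, the light chain of MHC class I. B2m, often used as a reference gene, read 615, 542 and 533 in AcPb neurons and 857, 745 and 922 in CD25 neurons (-0.56 ± 0.09, adjusted p = 0.0032). Of 7 adhesion molecules 3 were called (Icam1, Cd44, Vcam1). None of 11 inflammatory cytokines was called in limma, and 4 of them had an unadjusted p under 0.05, beside 11.7% of all probe sets tested. None of 16 genes of the IL-1 receptor family and its proximal signalling was called, and 6 had an unadjusted p under 0.05.

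Activity and immediate early genes followed the same direction in part, where 1.5% of the brightest probe sets of all genes were called lower and 0.346% higher. Fos, the AP-1 subunit, read 255, 294 and 263 in AcPb neurons and 697, 655 and 843 in CD25 neurons (-1.38 ± 0.17, adjusted p = 2e-04). Fos, Junb and Ier3 were the 3 of 24 immediate early genes called on their brightest probe set, and the activity markers Arc, Npas4 and Egr1 were not called. Rgs4, a regulator of G protein signalling, read 770, 815 and 777 in AcPb neurons and 1386, 1561 and 2764 in CD25 neurons (-1.19 ± 0.17, adjusted p = 0.00088). Npy, a neuropeptide of interneurons, read 588, 608 and 598 in AcPb neurons and 904, 1019 and 1228 in CD25 neurons (-0.79 ± 0.09, adjusted p = 6.6e-05). Of 14 neuropeptides, Npy, Vgf and Cck were called lower and none higher.

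The smaller lists of transcription, stress and matrix genes each held a few falls, beside 1.5% of the brightest probe sets of all genes. Cebpd and Cebpb (-0.57, adjusted p = 0.044) were called lower among 5 C/EBP family genes, Cebpb losing the call under 9 of 19 alternatives (highest adjusted p 0.22), and 2 of 12 acute phase genes were called lower. Among 11 heat shock genes Hspb1 and the co-chaperone Bag3 (-1.34) fell, and among 10 targets of the oxidative stress factor Nrf2 the quinone reductase Nqo1 (-1.33) and the sulfiredoxin Srxn1 (-0.72) fell. Of 16 matrix and proteolysis genes, Timp1 and the fibronectin gene Fn1 (-1.17) fell. Fn1 lost its call under 7 of 19 alternatives (highest limma adjusted p 0.33) and Nqo1 under 8 of 18 (0.3). With 1 of the 6 arrays left out, the matrix list and the Nrf2 list each held 0 to 2 called falls. Of 14 late activity genes 3 were called lower, Rgs4, Nptx2 and Vgf, and of 15 inhibitory neuron markers 2. No member of these lists was called higher.

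Other stress and metabolic lists held no call in limma. Over all probe sets tested, 11.7% had an unadjusted p under 0.05. At an unadjusted p under 0.05 there were 4 of 16 genes of the unfolded protein response, 7 of 19 of hypoxia and glycolysis, 1 of 13 of cholesterol synthesis, 4 of 14 regulated by glucocorticoids, 5 of 14 p53 targets and apoptosis genes and 1 of 4 sex-linked genes. Of 10 reference genes, B2m alone was called.

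**Figure D2:**
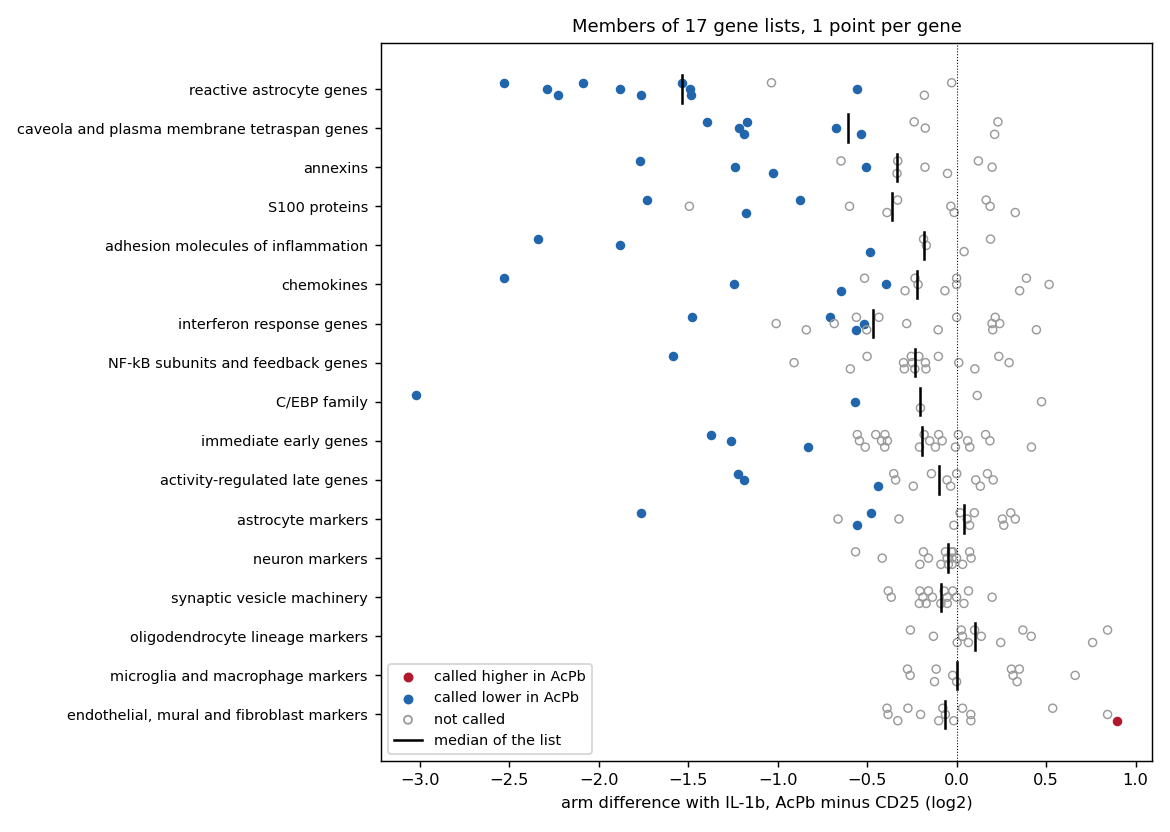
Log2 difference between IL-1b-treated AcPb and CD25 neurons for the tested members of 17 gene lists, 1 point per gene on its brightest probe set, red where called higher in AcPb, blue where called lower, open where not called, with a bar at the list's median. The reactive astrocyte list has its median at -1.54 and the neuron markers theirs at -0.05.

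Few neuronal identity genes were called between arms. None of 17 neuron markers was called in limma on the brightest probe set, and up to 2 were called lower with 1 array left out. At an unadjusted p under 0.05 there were 4 of the 17, beside 11.7% of all probe sets tested. Their differences lay between -0.56 and 0.08 with a median of -0.05, although the second Nefl probe set was called lower (-0.41, adjusted p = 0.042). None of 12 glutamate and GABA receptor subunits and none of 17 genes of synaptic vesicle release was called on the brightest probe set. Of these, 3 and 5 had an unadjusted p under 0.05. Of 17 potassium, sodium and calcium channel genes, Kcnq3 alone was called, higher in AcPb neurons (0.33, adjusted p = 0.043), and it lost the call under 9 of 19 alternatives, where its highest adjusted p was 0.3. A dimmer probe set of Slc17a6, the vesicular glutamate transporter VGLUT2, was higher in AcPb neurons at 1064, 1148 and 1086, against 748, 697 and 804 in CD25 neurons (0.54 ± 0.11, adjusted p = 0.011), a gene picked after its values were seen. Tbr1, a transcription factor of deep-layer neurons, read 848, 883 and 924 in AcPb neurons and 673, 695 and 560 in CD25 neurons (0.46 ± 0.10, adjusted p = 0.027), the only 1 of 17 cortical layer markers called. Tbr1 lost its call under 7 of 19 alternatives (highest limma adjusted p 0.2).

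Markers of other cell types were mostly level. Of 11 microglia and macrophage markers, 13 of the oligodendrocyte lineage and 4 of blood cells none was called in limma. At an unadjusted p under 0.05 there were 1, 2 and 0 of them, beside 11.7% of all probe sets tested. Aif1, Cx3cr1, Hbb-y and Alas2 lay below 0 on average in both arms. Microglia markers summed to between 791 and 1169 units on AcPb arrays and between 672 and 1050 on CD25 arrays. Oligodendrocyte lineage markers summed to between 6981 and 8380 units on AcPb arrays and between 5720 and 7963 on CD25 arrays. Of 15 endothelial, mural and fibroblast markers, Pdgfrb alone was called, higher in AcPb neurons, beside 0.346% of the brightest probe sets of all genes.

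The genes higher in AcPb neurons differed by smaller factors. Mfge8, a secreted protein that tags dying cells for engulfment, read 2078, 1962 and 1922 in AcPb neurons and 1116, 960 and 734 in CD25 neurons (1.09 ± 0.14, adjusted p = 0.00029). Cldn10, a claudin of cell junctions, read 754, 852 and 649 in AcPb neurons and 425, 361 and 274 in CD25 neurons (1.07 ± 0.15, adjusted p = 0.00079). Epas1, the hypoxia-inducible factor HIF-2 alpha, read 1107, 1002 and 1058 in AcPb neurons and 716, 603 and 566 in CD25 neurons (0.74 ± 0.11, adjusted p = 0.0011). On these probe sets CD25 replicate 3 was the lowest of the 6 arrays for all 3 genes. A second, dim Epas1 probe set was not called (0.70, limma adjusted p = 0.4). Arms that do not overlap were a condition for naming the leading rises, so this is no result about them.

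Other leading rises, named under the same condition, were the secreted protease Htra1, the metalloprotease inhibitor Timp4, the growth factor Fgf1 and the selenium carrier Selenop. Htra1 was higher on both of its probe sets (0.92 and 0.81). Timp4 read 636, 619 and 671 in AcPb neurons and 424, 371 and 318 in CD25 neurons (0.77 ± 0.12, adjusted p = 0.0019). Fgf1 read 297, 254 and 311 in AcPb neurons and 156, 157 and 141 in CD25 neurons (0.86 ± 0.14, adjusted p = 0.0033). For both Timp4 and Fgf1 the second probe set was not called. Adhfe1 was higher on 2 of 3 probe sets (1.18 and 0.98), and Eva1a, Abhd3, Klhl14, Sostdc1 and Pdgfrb on a single one each (0.90 to 1.08). Abhd3 lost its call under 9 of 19 alternatives, Selenop under 8 of 19 and Pdgfrb under 8 of 18. Sostdc1 lost it under 7 of 19, Eva1a under 6 of 19 and Klhl14 under 1 of 19. Fgf1 was the 1 gene called of 13 growth factors and trophic receptors, beside 0.346% of the brightest probe sets of all genes called higher. Hes5, a target of Notch signalling and the 1 called of 16 progenitor and dividing cell markers on the brightest probe set, read 260, 222 and 279 in AcPb neurons and 167, 151 and 127 in CD25 neurons (0.72 ± 0.16, adjusted p = 0.028). Hes5 lost its call under 7 of 19 alternatives (highest limma adjusted p 0.17).

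For the leading rises Nlgn3 and Dio2 the brightest probe set was not called. Nlgn3, a postsynaptic adhesion protein, read 149, 142 and 126 in AcPb neurons and 3.47, 32.5 and -45.8 in CD25 neurons (2.64 ± 0.57, adjusted p = 0.024), but its brightest probe set did not differ beyond the spread (-0.02, adjusted p = 1). Dio2, the enzyme that activates thyroid hormone, read 148, 107 and 164 in AcPb neurons and 67.0, 52.1 and 35.6 in CD25 neurons (1.21 ± 0.19, adjusted p = 0.002), while its brightest probe set was not called (0.13, adjusted p = 0.76).

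Neither arm showed a broad response to IL-1b against its own controls. In AcPb neurons 4 of 41856 probe sets (0.00956%) were called, 1 higher (0.00239%) and 3 lower (0.00717%), and in CD25 neurons 2 (0.00478%), both lower. In AcP neurons, in the same fit, 108 (0.258%) were called, 25 of them lower (0.0597%), and 7.83% had an unadjusted p under 0.05. The 4 calls in AcPb neurons were lower Ppcdc, Peak1 and Csmd3 and higher 4930431P03Rik, and the 2 in CD25 neurons were lower Lbp and Ccn4, all named here after their values were seen. Peak1, a kinase-like scaffold of the cytoskeleton, read 82.1, 46.1 and 77.7 in IL-1b-treated AcPb neurons, against 184, 175 and 161 in AcPb controls (-1.19 ± 0.15, adjusted p = 0.0045). At an unadjusted p under 0.05, 3748 probe sets (8.95%) differed in AcPb neurons and 2236 (5.34%) in CD25 neurons. The IL-1b responses share the treated arrays with the comparison of the arms.

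Of the 83 probe sets that IL-1b raised in AcP neurons (0.198% of those tested), none was called in AcPb neurons and none in CD25 neurons with limma. At an unadjusted p under 0.05, 3 of the 83 were higher with IL-1b in AcPb neurons and 1 in CD25 neurons. The median log2 change of the 83 was 1.58 in AcP neurons, 0.04 in AcPb neurons and -0.10 in CD25 neurons.

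Many of these 83 probe sets differed between the IL-1b-treated arms. Of the 83, 31 (37.3%) were called lower in AcPb than in CD25 neurons and none higher, beside 1.04% and 0.234% of all probe sets tested, and the 31 covered 26 of 63 genes. They were 7.14% of the 434 falls. Among them were Cebpd, Cxcl10, Icam1, Socs3, Fos, Gbp2, Tnfaip2, S1pr3, Osmr and Nfkbia. Without IL-1b, 44 of the 83 were called lower and 1 higher in AcPb neurons, beside 2.29% and 0.724% of all probe sets. Under the alternatives run, from 21 to 37 probe sets were both raised in AcP neurons and lower in AcPb than in CD25 neurons with IL-1b.

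**Figure D3:**
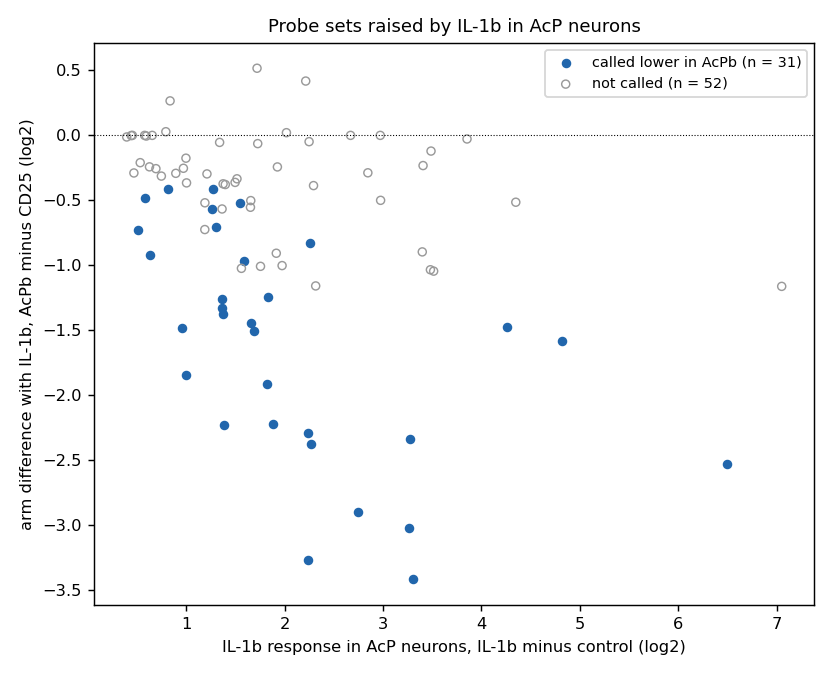
The 83 probe sets raised by IL-1b in AcP neurons: their log2 response there (horizontal) and their log2 difference between IL-1b-treated AcPb and CD25 neurons (vertical), blue where called lower in AcPb. The median is 1.58 on the horizontal axis and -0.52 on the vertical one.

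The falls between the arms were largely present without IL-1b as well, the rises less often. In the control-stimulus arrays, which are other samples, 957 probe sets were called lower in AcPb than in CD25 neurons (2.29%) and 303 higher (0.724%). Together these were 1260 (3.01%). Of the 434 falls seen with IL-1b, 330 (76%) were called lower without it and 419 had the same sign. Of the 98 rises, 43 (43.9%) were called higher without IL-1b and 85 had the same sign. Those 373 shared calls were 29.6% of the 1260. The median log2 difference of the 434 falls was -0.74 with IL-1b and -0.75 without. That of the 98 rises was 0.63 with IL-1b and 0.36 without. How many of all probe sets kept their sign was not counted. Across all probe sets tested the differences with and without IL-1b correlated at r = 0.275 (Spearman's rho 0.165), over features that are not independent replicates.

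Cebpd averaged 77.0 ± 10.1 in AcPb neurons and 767 ± 272 in CD25 neurons with IL-1b, and 76.9 ± 4.30 in AcPb neurons and 824 ± 53.4 in CD25 neurons without it (SD, n = 3 each). Cxcl10 averaged 19.96 ± 1.49 in AcPb neurons and 191 ± 11.7 in CD25 neurons with IL-1b, and 12.5 ± 6.74 in AcPb neurons and 199 ± 26.5 in CD25 neurons without it. Neither gene was called in the IL-1b response of either arm.

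The test of the difference itself, the arm difference with IL-1b minus that without, called 2 probe sets (0.00478%), 1 in each direction (0.00239% each), and 8.45% had an unadjusted p under 0.05. Both were dim, Gm15850 and 4930431P03Rik. Peak1, called with IL-1b (-1.52, adjusted p = 2e-05) and not without (-0.28, adjusted p = 0.4), had an adjusted p of 0.089 in that test. Nlgn3 had differences of opposite sign, 2.64 with IL-1b and -1.88 without, and an adjusted p of 0.11.

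**Figure D4:**
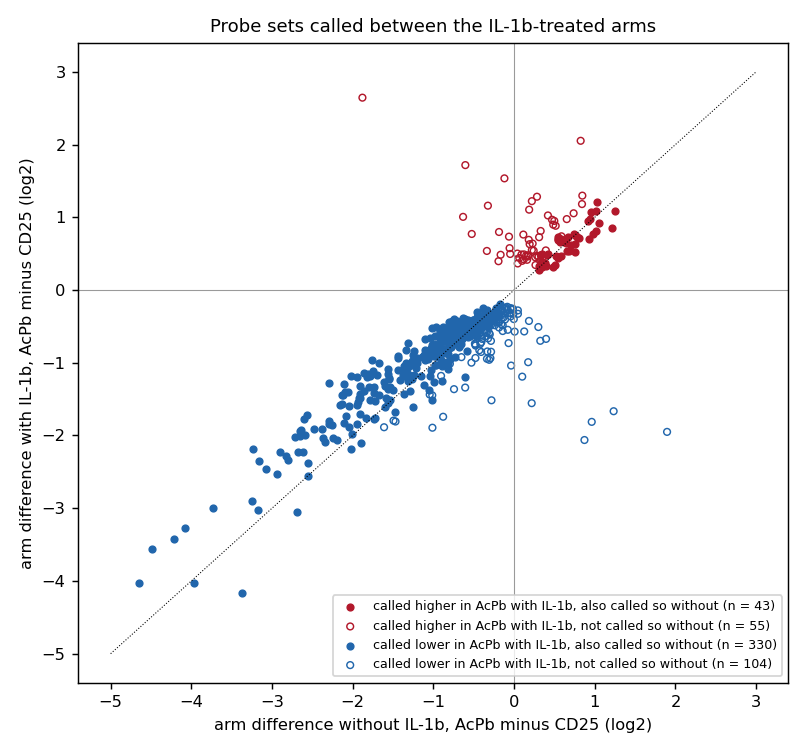
Log2 difference between AcPb and CD25 neurons with IL-1b (vertical) and without it (horizontal) for the 532 probe sets called with IL-1b, filled where also called the same way without it. The dotted line marks equal differences. Of the 434 falls 330 are filled, and of the 98 rises 43.

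In the controls of the other arms these probe sets mostly read closer to AcPb than to CD25 neurons. Of the 434 falls, the mean of AcP controls lay nearer to that of AcPb controls than to that of CD25 controls for 392 (90.3%), against 60.1% of all probe sets tested. For controls expressing both AcP and AcPb the count was 367 (84.6%), against 58.4%. Of the 98 rises the counts were 81 (82.7%) and 74 (75.5%). Serpina3n without IL-1b averaged 460 ± 196 with AcP plus AcPb, 266 ± 20.4 with AcP, 250 ± 26.4 with AcPb and 1332 ± 60.4 with CD25. Mfge8 without IL-1b averaged 1441 ± 237 with AcP plus AcPb, 2007 ± 177 with AcP, 2042 ± 37.2 with AcPb and 861 ± 159 with CD25. With IL-1b, Cebpd in AcP neurons averaged 809 ± 256, a level within the range of the CD25 arrays, and 68.2 ± 14.4 in AcP controls. Cxcl10 averaged 2512 ± 277 in AcP neurons with IL-1b, above every CD25 array.

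**Figure D5:**
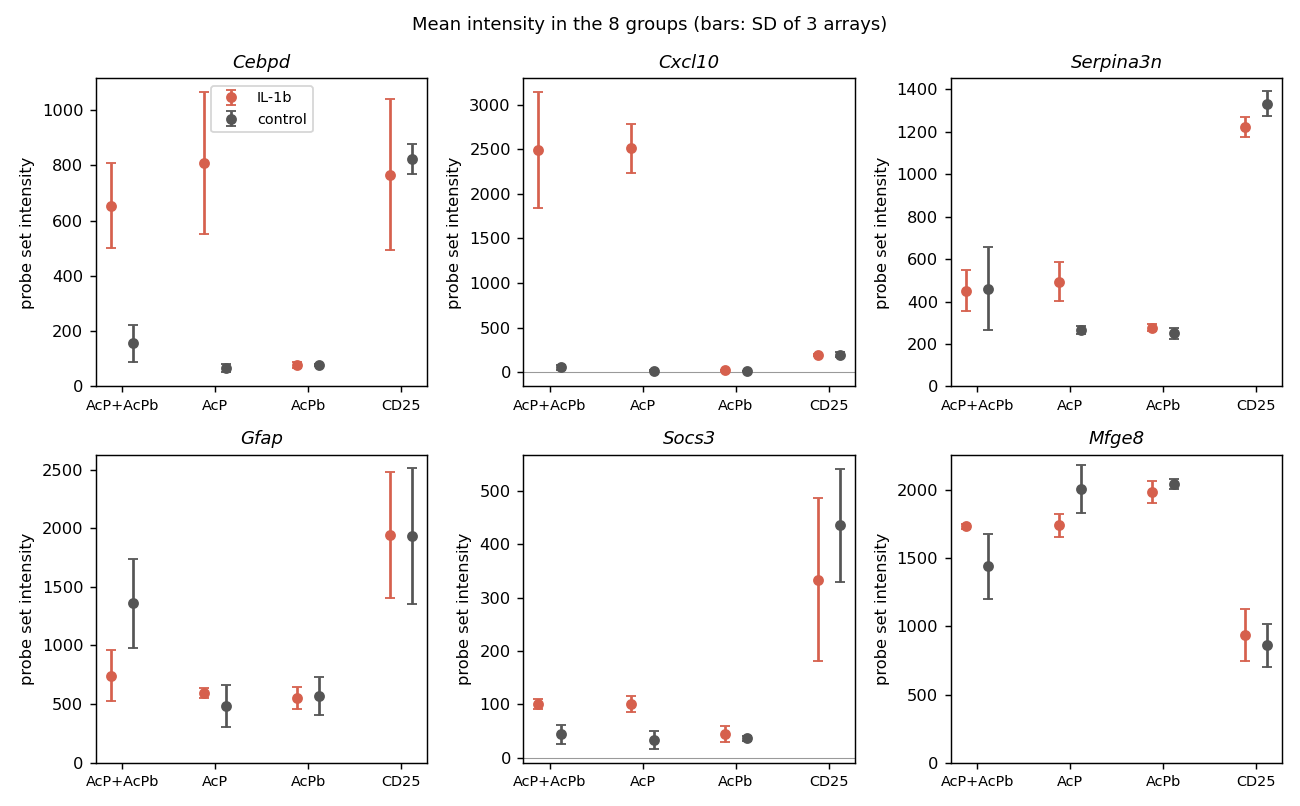
Mean probe set intensity of 6 genes in the 8 groups, red with IL-1b and grey without, with bars for the SD of 3 arrays. In CD25 neurons Serpina3n averages 1223 units with IL-1b and 1332 without, against 276 and 250 in AcPb neurons, and Mfge8 is lowest in CD25 neurons.

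The labels name no batch and give the AcPb and CD25 arrays the same short code, whose meaning they do not state, so no batch could be set as a block. The expressed chain and the preparation of the cells cannot be told apart for any of these differences.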

How the data were processed

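RNA of 24 samples, 3 in each of 8 groups taken from the labels, was measured on one-colour Affymetrix arrays. The deposited values are linear, background-subtracted intensities per probe set, as the values below 0 on 16.4% to 18.22% of each array's probe sets show. The summarisation and scaling that the authors used are not stated in the labels or file headers.

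Of 45077 probe sets, 40 AFFX controls were left out and 3181 that were at or below 0 on every array were not tested. Values below 0 were set to 0, and log2(intensity + 16) of the deposited values was fitted with limma (3.58.1, R 4.3.3) as 8 group means over all 24 arrays, with 16 residual and 1.83 prior degrees of freedom. P-values were two-sided and adjusted by Benjamini-Hochberg over the 41856 probe sets tested. The log2 scale understates changes of dim genes and near 0 depends on the added 16. Values after ± are standard errors of log2 differences, or SDs of intensities. The fit was checked on simulated data. Probe sets were named through the supplied platform annotation, which gave 1 symbol for 34945, several for 932 and none for 9160. The number of arrays limits the precision, and 3 arrays against 3 cannot give an exact permutation p under 0.1.

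Genes named are the 15 largest falls and rises among called, non-overlapping probe sets averaging at least 100 units in the higher group, each counted once by its largest change, then up to 4 members of each list by size of change, up to 5 genes each way for the difference between arm differences, and a set of IL-1 genes. Lists are read on each gene's brightest probe set, where 1.5% of 17343 genes were called lower and 0.346% higher with IL-1b. The comparison, the lists and the alternatives were chosen with earlier results of these data known. The alternatives changed the floor, the pseudocount, the filter, the scaling, the arrays fitted and the replicate block, and left out each array in turn.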

Additional observations from a re-analysis of the deposited data

Results flagged for a closer look

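The arm difference with IL-1b differed from that without it, in limma's test of the difference itself, for 2 dim probe sets. Gm15850 read -17.5, -28.0 and -21.0 in AcPb neurons and 59.6, 43.4 and 36.7 in CD25 neurons with IL-1b, against 65.1, 49.8 and 23.6 in AcPb neurons and -24.6, -8.98 and -5.68 in CD25 neurons without it (difference of the log2 differences -3.85 ± 0.49, adjusted p = 0.015). 4930431P03Rik read 58.6, 20.8 and 75.6 in AcPb neurons and 11.6, -15.2 and -13.8 in CD25 neurons with IL-1b, against -12.5, -19.8 and -2.87 in AcPb neurons and 5.07, 13.4 and 7.26 in CD25 neurons without it (2.32 ± 0.34, adjusted p = 0.044). In each case the lower group lay at or near 0, so the sizes depend on the added 16.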

How the results depend on the processing

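The 532 calls between the IL-1b-treated arms became 60 with only those 6 arrays fitted and 271 to 610 with 1 array left out, lowest without CD25 replicate 3. The other settings gave 473 to 758. The 1260 calls without IL-1b became 2498 with array weights and 726 to 867 with 1 array left out. The 2 calls of the difference between the arm differences became 6 with values under 32 set to 32, 1 with a pseudocount of 64, 0 with a generalised log, 1 with the dim filter, 4 with quantile normalization, 9 with array weights and 0 to 18 with 1 array left out. The 4 calls of the AcPb response became 14 with the floor of 32, 7 with the generalised log, 2 on brightest probe sets, 44 with array weights, 1 with the 12 arrays of both arms and 3 to 25 with 1 array left out. The 2 calls of the CD25 response became 12 with the floor of 32, 1 with a pseudocount of 64, 7 with the 12 arrays and 0 to 15 with 1 array left out. They became 0 with the generalised log, the dim filter, a mean of at least 100, centred medians, brightest probe sets and an intensity trend. The cause was not tested. The replicate block gave 568 calls with IL-1b, 1 for the difference between the arm differences, 2 in the AcPb response and 0 in the CD25 response. Pairing by replicate number was not taken up, since in none of 4 pairs of groups did every same-numbered pair's deviations correlate above 0.1 (-0.038 to 0.15). With IL-1b, 0 AcPb and CD25 arrays correlated best with their own number, against 2 in each of the other 3 pairs of groups. Under the block Kcnq3 lost its call (adjusted p = 0.058). Of 59 named called genes none reversed, 7 kept the call under every setting run, 7 kept it with the 6 arrays alone and 38 without CD25 replicate 3. Uncalled Il2ra (-0.10) ranged between -0.2428 and 0.0276 with 1 array left out and turned positive without CD25 replicate 1 (0.014) and without AcPb replicate 3 (0.0276). Values near 0 limit what dim genes can show.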
